A study of Mus musculus with 11 samples.

Results

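The Bcl2 family of apoptosis regulators was described here through 10 genes of 21578 genes with a symbol on the array. They were the guardians Bcl2, Bcl2l1 and Mcl1, the guardian relative Bcl2l10, the pore formers Bax and Bak1, and the BH3-only genes Bcl2l11, Bid, Bik and Bbc3. These members were chosen by name with earlier results of these data known, so their counts below describe them only. Other family genes are given in a further list. Each of the 10 was read by 1 row (probe set) with 1 gene symbol, so no choice between rows was needed. RNA was measured in 11 arrays of pools of 40 late 2-cell mouse embryos, from females of 5 to 10 weeks and sperm of wild-type males of 10 to 16 weeks, on a mixed 129/Sv and C57BL/6J background. Control embryos (maternal Ring1-/Rnf2+) came from eggs without Ring1, and mutant embryos (matRing1-/Rnf2- double mutant) from eggs without Ring1 and Rnf2, the catalytic subunits of Polycomb repressive complex 1. Loss of maternal Ring1 was therefore shared by all groups, and no embryo from a wild-type egg was included. Embryos of each genotype were left untreated (3 control and 3 mutant pools) or kept in 24 µg/ml α-amanitin, an RNA polymerase II inhibitor, from 6 to 35 h after fertilization (3 control and 2 mutant pools). Embryos of several mice were pooled, so an array stands for a pool and not for an animal, and the sources used here state neither the Cre driver nor the harvest time of the untreated pools.

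Bcl2 family proteins set the threshold of the mitochondrial route to cell death. Bax and Bak1 open pores in the outer mitochondrial membrane, which releases cytochrome c and starts the caspase cascade. The guardians hold Bax and Bak1 in check, and the BH3-only proteins relay stress by occupying the guardians or by activating the pore formers directly. The mouse egg is loaded with maternal RNA, and the main wave of embryonic transcription begins at the 2-cell stage, so RNA left under a complete α-amanitin block is mainly maternal.

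Rnf2 itself separated the genotypes: its log2 value lay between 6.59 and 7.31 in the 6 control arrays and between 5.00 and 5.24 in the 5 mutant arrays. Ring1 lay between 4.35 and 4.79 in all 11. The sources used here do not say whether these rows read the deleted exons. Replicates correlated at 0.966 to 0.984 within groups. Of 14 oocyte and 2-cell embryo markers with a row, 12 had a mean log2 value above 6 in the untreated groups, while 0 of 10 sperm markers did in any group and 1 of 14 cumulus and granulosa markers did (Amhr2, at 6.63, in untreated control embryos alone). Summed on the linear scale, the oocyte and 2-cell markers reached 3489 to 3953 in untreated control and 4989 to 5965 in untreated mutant arrays. Under α-amanitin they reached 3525 to 3895 (control) and 4728 to 5930 (mutant). The summed cumulus and granulosa markers ranged from 335 to 376, 323 to 357, 288 to 309 and 340 to 371 in the same order. These sums moved with genotype or treatment alongside the family members below, and their part in the results was not tested. Every pool held 40 embryos labelled as 2-cell. The cumulus and granulosa sums moved largely with Amhr2 and Ptgs2. In untreated control, untreated mutant, treated control and treated mutant embryos, Amhr2 averaged 6.63, 4.95, 4.53 and 4.49. Ptgs2 averaged 4.56, 5.86, 4.65 and 5.96 in that order. The list's median log2 value stayed between 4.288 and 4.465 in all arrays. Whether the sums read such cells was not tested, and fewer cells and less RNA per cell cannot be told apart.

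RefSeq promoter windows were found for 8 of the 10 members. The 250 bases before the annotated start are shown for Mcl1, Bax and Bid, the members that were lower in untreated mutant embryos and also lower after α-amanitin in control embryos (build GRCm38.p6, 5′ to 3′ on the gene's strand). Capitals mark matches, on either strand, to GGGCGG (the core of an Sp1 site) and CACGTG (an E-box). The Mcl1 window is chr3:95658471-95658720 on the plus strand, the Bax window chr7:45466899-45467148 on the minus strand, and the Bid window chr6:120916825-120917074 on the minus strand.
Mcl1: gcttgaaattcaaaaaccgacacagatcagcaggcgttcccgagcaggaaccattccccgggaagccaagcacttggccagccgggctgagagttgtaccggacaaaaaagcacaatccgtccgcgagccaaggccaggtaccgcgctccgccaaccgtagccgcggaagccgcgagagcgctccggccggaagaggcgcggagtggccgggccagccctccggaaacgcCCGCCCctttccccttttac
Bax: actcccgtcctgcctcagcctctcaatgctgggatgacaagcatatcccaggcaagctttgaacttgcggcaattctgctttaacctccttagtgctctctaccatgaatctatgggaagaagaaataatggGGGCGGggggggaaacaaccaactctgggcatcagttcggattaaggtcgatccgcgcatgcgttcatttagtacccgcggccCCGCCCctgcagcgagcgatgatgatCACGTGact
Bid: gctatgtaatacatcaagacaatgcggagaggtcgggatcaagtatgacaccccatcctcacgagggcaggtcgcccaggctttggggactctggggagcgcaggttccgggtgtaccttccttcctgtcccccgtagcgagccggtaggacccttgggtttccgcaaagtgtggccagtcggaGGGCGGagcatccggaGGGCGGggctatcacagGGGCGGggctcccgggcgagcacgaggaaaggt
The windows held 26, 14 and 18 CpG dinucleotides, against a median of 6 over all 32851 windows of this length. GGGCGG was found 1 time in Mcl1, 2 times in Bax and 3 times in Bid, and 32.7% of all windows hold it. CACGTG was found 1 time in Bax, and 6.02% of all windows hold it. CCAAT (33.8% of windows), TATAAA (12.4%) and TGACGTCA (1.55%) were searched in the same way and had no match in these 3 windows. Matches did not sort the members by how they changed. Bcl2, which did not pass in any comparison, held GGGCGG 7 times and 36 CpG dinucleotides, and the 3 Bbc3 windows held it 5, 1 and 7 times. The 3 Bcl2l1 windows and the Bak1 window held none of the 5 motifs. These matches describe the sequence only.

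**Figure D1:**
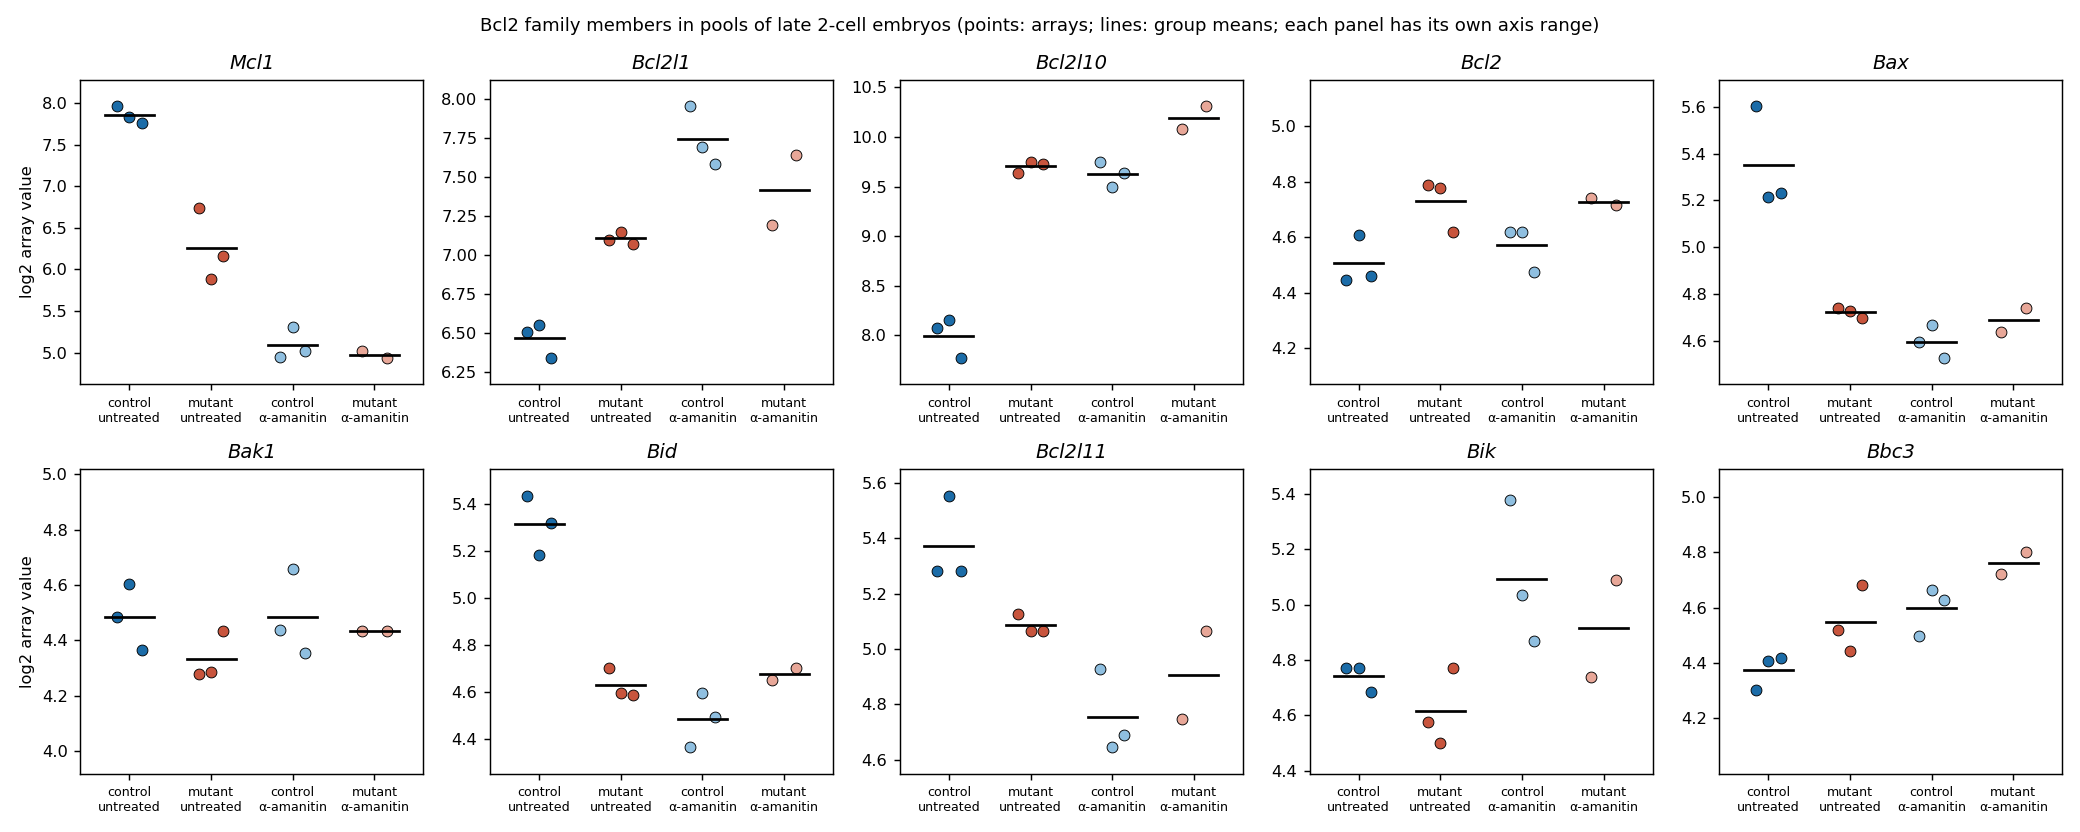
Log2 array values (y axis, each panel with its own range) of the 10 Bcl2 family genes in the 4 groups (x axis); points are single arrays and lines are group means. Mcl1 ran from 7.76 to 7.96 in untreated control arrays down to 4.93 to 5.30 in treated arrays, while Bcl2l10 was lowest in untreated control arrays, at 7.77 to 8.15.

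In untreated embryos, the guardians Bcl2l1 and Mcl1 moved in opposite directions when maternal Rnf2 was missing. Bcl2l1 rose 1.56-fold and the guardian relative Bcl2l10 rose 3.26-fold, whereas Mcl1 fell 3.01-fold. The pore former Bax and the BH3-only gene Bid fell as well, by 0.63 and 0.69 on the log2 scale. The other 5 members did not pass the test. This comparison addresses the effect of removing Rnf2 from an egg that already lacks Ring1. In all, 5 of 10 members changed, 2 up and 3 down, in a comparison where 20.5% of all 34760 rows were called (6.8% up and 13.7% down by limma, adjusted p below 0.05). After quantile normalization the background was 11.5% up and 10.4% down, and the members' count stayed at 2 up and 3 down. Over the alternatives run, the differences ranged from -1.83 to -1.20 for Mcl1, 1.59 to 2.17 for Bcl2l10 and 0.58 to 1.08 for Bcl2l1. Those of Bax and Bid ranged from -0.70 to -0.49 and from -0.75 to -0.56. Over the brighter 50% of rows alone, which hold all members but 1, 7338 rows were called. The called share among brighter rows was thus well above 20.5%. The groups did not overlap for 8 of the 10 members, against 35% of all rows. The members' median difference was -0.14, and that of all rows 0.02.

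Mcl1, a short-lived guardian that early mouse embryos and oocytes need for survival, had log2 values of 7.96, 7.83 and 7.76 in untreated control and 6.74, 5.89 and 6.16 in untreated mutant arrays. The genotypes did not overlap, and the mutant arrays were the more scattered group (SD 0.43 against 0.10, n = 3 each). The difference was -1.59 ± 0.18 (limma's SE, as for all values with ±; adjusted p = 0.000113), the 569th lowest of 34760 rows. An exact permutation test over the arrays gave p = 0.1, the smallest that 3 against 3 arrays allow, and the same floor holds for every such comparison here.

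Bcl2l10, a guardian relative whose mRNA is abundant in mouse oocytes, had values of 8.07, 8.15 and 7.77 in untreated control and 9.63, 9.75 and 9.73 in untreated mutant arrays. The groups lay well apart. The rise of 1.71 ± 0.11 (limma's adjusted p = 7.17e-06) was the 43rd highest of 34760 rows. Bcl2l1, which encodes Bcl-xL and shorter splice forms that 1 row cannot separate, had values of 6.50, 6.55 and 6.34 in control and 7.10, 7.15 and 7.07 in mutant arrays. It rose by 0.64 ± 0.13 (limma's adjusted p = 0.00434), with no overlap, and by 1.08 after quantile normalization. Of the 14 oocyte and 2-cell markers, 9 were also higher and 1 lower in this comparison, beside 6.8% higher and 13.7% lower among all rows.

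Bax, a pore former, had values of 5.60, 5.21 and 5.23 in untreated control and 4.74, 4.73 and 4.69 in untreated mutant arrays. Control replicate 1 was the highest, and the groups did not overlap. The difference was -0.63 ± 0.11 (limma's adjusted p = 0.00132), and -0.50 without that replicate, still past the threshold. Bid, a BH3-only protein that caspase-8 cleaves and that links death receptors to mitochondria, had values of 5.44, 5.18 and 5.32 in control and 4.70, 4.60 and 4.59 in mutant arrays. Its difference was -0.69 ± 0.09 (limma's adjusted p = 0.000282). The mutant values of both genes lay close to the array medians, which ranged from 4.45 to 4.55.

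The remaining BH3-only genes, the founding guardian and Bak1 did not pass the test. Bcl2l11, which encodes the potent activator Bim, had values of 5.28, 5.55 and 5.28 in untreated control and 5.12, 5.07 and 5.07 in untreated mutant arrays, without overlap (-0.29, 95% interval -0.54 to -0.03, limma's adjusted p = 0.12). Bcl2 itself lay at 4.45 to 4.61 in control and 4.62 to 4.79 in mutant arrays (0.22, interval 0.04 to 0.41, adjusted p = 0.0952). Bbc3, the p53 target also called Puma, lay at 4.30 to 4.42 and 4.44 to 4.68 (0.17, interval -0.02 to 0.36). Bak1, the other pore former, lay at 4.37 to 4.60 and 4.28 to 4.43 (-0.15, interval -0.37 to 0.07), and Bik at 4.68 to 4.77 and 4.50 to 4.77 (-0.13, interval -0.43 to 0.18). The groups of Bak1 and of Bik overlapped, and those of the other 3 genes did not. Values of Bcl2, Bbc3, Bak1 and Bik lay close to the array medians of 4.45 to 4.55 in both genotypes. The lack of a call therefore does not show that these RNAs were stable.

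**Figure D2:**
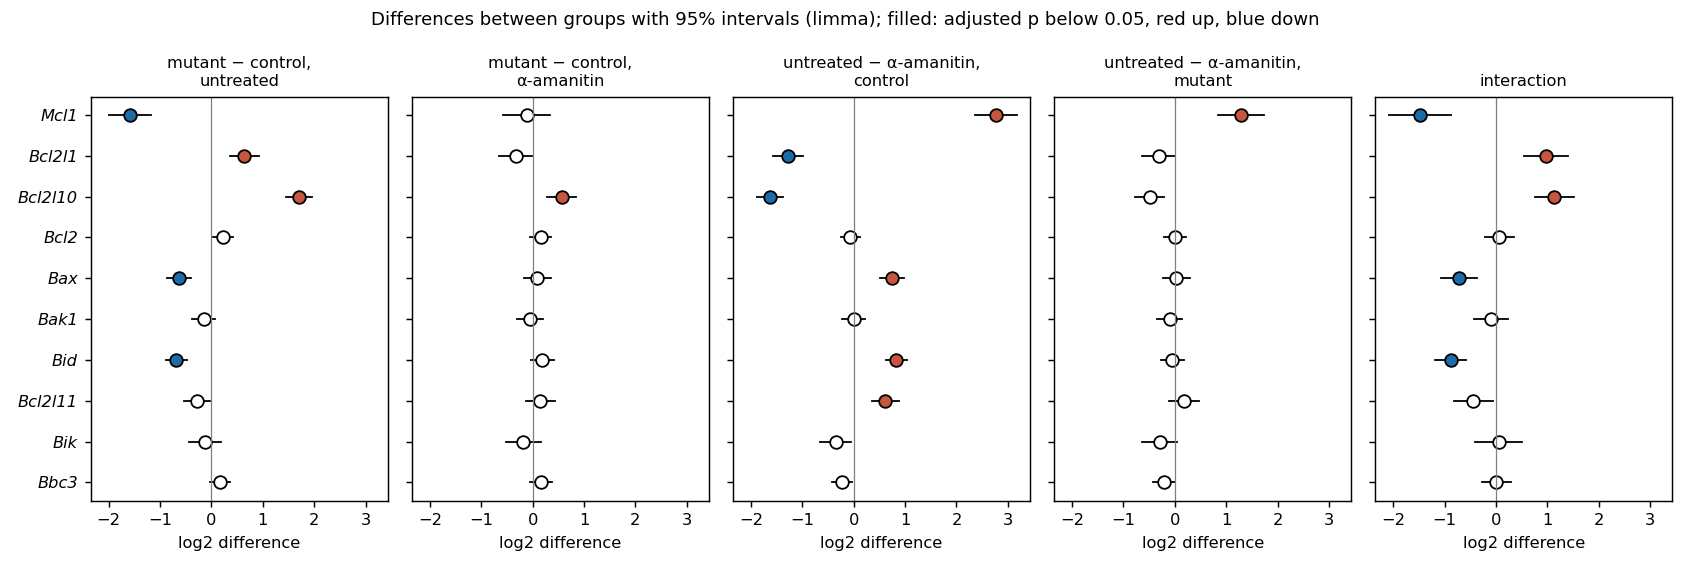
Log2 differences (x axis) of the 10 genes (y axis) in the 5 comparisons, with 95% intervals from limma; filled points passed an adjusted p of 0.05, red higher and blue lower in the first-named group. In the first panel Mcl1 is at -1.59 and Bcl2l10 at 1.71, and in the second only Bcl2l10, at 0.57, is filled.

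Under α-amanitin, Mcl1, Bax and Bid did not pass the test and Bcl2l10 was the 1 member of 10 that passed. If the block was complete, which was not tested, this comparison asks which genotype differences exist in the maternal RNA left at harvest. The treated control arrays had Bcl2l10 values of 9.74, 9.50 and 9.63 and the treated mutant arrays 10.08 and 10.31, without overlap. The rise was 0.57 ± 0.13, or 1.48-fold (limma's adjusted p = 0.0191, n = 3 and 2), in a comparison where 9.04% of rows were called (5.52% up and 3.52% down). It did not pass without treated control replicate 2 (0.51, adjusted p = 0.0623) or 3 (0.57, 0.0506), nor without treated mutant replicate 2 (0.45, 0.136). With only the groups compared the adjusted p was 0.0762. Of the 14 oocyte and 2-cell markers, 4 were also called, all higher, and their summed level moved largely with Dppa3 (group means of 7.82 in treated control and 10.28 in treated mutant embryos). The list's median log2 value overlapped, at 7.30 to 7.69 in control and 7.49 to 8.14 in mutant arrays.

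For Mcl1 the treated control arrays read 4.95, 5.30 and 5.01 and the treated mutant arrays 5.02 and 4.93, a difference of -0.11 with a 95% interval of -0.57 to 0.34 (limma's adjusted p = 0.882). The groups overlapped. Bcl2l1 read 7.95, 7.69 and 7.58 in control and 7.19 and 7.64 in mutant arrays, which overlapped (-0.32 ± 0.14, adjusted p = 0.25), so its sign was opposite to that in untreated embryos. Bax (0.09, interval -0.17 to 0.35) and Bid (0.19, interval -0.03 to 0.42) did not pass either. The other 5 members lay between -0.18 (Bik) and 0.16 (Bbc3). The groups did not overlap for 4 members, against 29.8% of all rows, and the members' median was 0.12 against 0.01 for all rows.

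**Figure D3:**
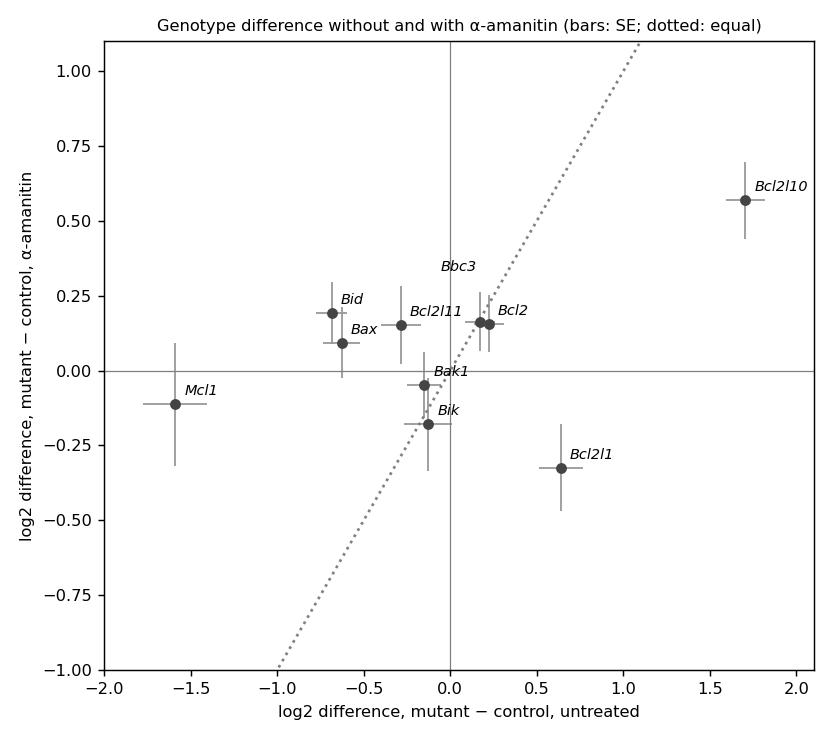
Log2 difference between mutant and control embryos without α-amanitin (x axis) and with it (y axis) for the 10 genes, with limma's SE as bars; the dotted line marks equal differences and the axes have different scales. Mcl1 lies at -1.59 untreated and -0.11 treated, Bcl2l1 at 0.64 and -0.32, and Bcl2l10 at 1.71 and 0.57.

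In control embryos, comparing untreated with α-amanitin-treated pools asks which family RNAs differ when transcription is blocked. Mcl1 was 6.80-fold higher in untreated than in treated embryos, and Bid, Bax and Bcl2l11 were 1.78-fold, 1.69-fold and 1.53-fold higher. Bcl2l10 and Bcl2l1 went the opposite way and were 3.09-fold and 2.43-fold lower in untreated embryos. Thus 4 members were higher and 2 lower, where 27.3% of all rows were called (15.9% up and 11.4% down, or 13.6% up and 17.8% down after quantile normalization). Over the brighter 50% of rows alone 9274 rows were called, so the share among brighter rows was well above 27.3%. The groups did not overlap for 8 members, against 40.1% of rows, and the median was -0.03 against -0.04 for all rows. This comparison shares its untreated control arrays with the untreated genotype comparison, so the opposite signs of Mcl1, Bax, Bid, Bcl2l1 and Bcl2l10 in both are not independent.

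The Mcl1 difference was 2.76 ± 0.18 (limma's adjusted p = 7.96e-07), from 7.76 to 7.96 in untreated to 4.95 to 5.30 in treated control arrays. Its percentile among all rows of its array was 95.6 to 95.8 in untreated and 73.3 to 80.9 in treated control arrays. Bid differed by 0.83 ± 0.09 (adjusted p = 3.53e-05), with treated values of 4.36, 4.60 and 4.49. Bax differed by 0.75 ± 0.11 (adjusted p = 0.000219), with treated values of 4.60, 4.67 and 4.53. Bcl2l11 differed by 0.62 ± 0.12 (limma's adjusted p = 0.00174), with treated values of 4.93, 4.65 and 4.69, and by 0.40 after quantile normalization. In each of these 4 genes every untreated control array lay above every treated one.

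For the RNAs that were higher under the block, the Bcl2l10 difference was -1.63 ± 0.11 (limma's adjusted p = 1.15e-06) and the Bcl2l1 difference -1.28 ± 0.13 (adjusted p = 1.82e-05). Since array values carry no absolute scale, a larger share of the RNA and more RNA per embryo cannot be told apart here. Bik, with values of 4.77, 4.77 and 4.68 in untreated and 5.38, 5.03 and 4.87 in treated control arrays, did not pass (-0.35 ± 0.14, adjusted p = 0.0927). It passed after quantile normalization (-0.51, adjusted p = 0.00612) and without treated control replicate 3 (-0.46, adjusted p = 0.0374). Bbc3 (-0.22, adjusted p = 0.0919), Bcl2 (-0.07) and Bak1 (0.00) did not pass.

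In mutant embryos the same contrast left Mcl1 as the 1 member that passed. Its values were 6.74, 5.89 and 6.16 in untreated and 5.02 and 4.93 in treated mutant arrays, a 2.44-fold difference of 1.29 ± 0.21 (limma's adjusted p = 0.00715, n = 3 and 2), in a comparison where 3.56% of rows were called (2.55% up and 1.02% down). With only the groups compared the adjusted p was 0.12. Bcl2l10 was at 9.63 to 9.75 in untreated and 10.08 to 10.31 in treated mutant arrays, without overlap, and narrowly missed the threshold (-0.49 ± 0.13, adjusted p = 0.0678). Bcl2l1 differed by -0.31 (interval -0.63 to 0.01), Bax by 0.03 (interval -0.23 to 0.29), Bid by -0.05 (interval -0.27 to 0.18) and Bcl2l11 by 0.18 (interval -0.11 to 0.46). The groups did not overlap for 4 members, against 26.5% of rows.

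The interaction, which subtracts the treatment difference of control from that of mutant embryos (untreated minus treated in each), tests directly whether the response to α-amanitin differed between genotypes. It equals the untreated genotype difference minus the treated one, so it is not independent of the comparisons above. It passed for 5 members, the same 5 that were called between genotypes in untreated embryos. Of all rows 14.3% were called (3.47% up and 10.9% down, or 9.56% up and 8.19% down after quantile normalization). Over the brighter 50% of rows alone 5508 rows were called, so the share among brighter rows was well above 14.3%. Mcl1 (-1.48 ± 0.28, limma's adjusted p = 0.00407), Bid (-0.88 ± 0.14, 0.00137) and Bax (-0.72 ± 0.16, 0.0103) had a smaller untreated minus treated difference in mutant than in control embryos. For Bcl2l10 (1.14 ± 0.17, 0.00114) and Bcl2l1 (0.96 ± 0.19, 0.0062) that difference was less negative in mutant embryos. The Mcl1 value was -0.98 after quantile normalization (adjusted p = 0.0276). Bcl2l11 did not pass (-0.44, interval -0.82 to -0.06, adjusted p = 0.142), and Bcl2, Bak1, Bik and Bbc3 lay between -0.10 and 0.07.

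Ordered by group mean, Mcl1 stood at 7.85 in untreated control, 6.26 in untreated mutant, 5.09 in treated control embryos and 4.98 with treatment in the mutant, and the last pair overlapped. Bcl2l10 stood at 10.19 in treated mutant, 9.70 in untreated mutant, 9.63 in treated control embryos, and lowest in untreated control embryos (7.77 to 8.15), where untreated mutant and treated control arrays overlapped. Bcl2l1 stood at 7.74 in treated control, 7.42 in treated mutant, 7.10 in untreated mutant and 6.46 in untreated control embryos, where the first pair overlapped. Bax and Bid each stood above 5.3 in untreated control embryos (5.35 and 5.31) and between 4.48 and 4.72 in the other 3 groups.

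The genes whose pattern over the 11 arrays was most like that of the 3 widest-ranging members are given as a description, since the arrays share their groups and many genes reach similar values. For Mcl1 these were Tnpo3 (Pearson's r = 0.995), Ctsc (0.993) and Rps15 (0.993), among 652 of 19611 genes above 0.95. For Bcl2l10 they were Commd3 (0.991), Parl (0.990) and Vps39 (0.984), among 148 such genes. For Bcl2l1 they were Abhd4 (0.996), Atp9a (0.993) and Rph3al (0.992), among 300.

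Further genes of the cell death machinery were followed in 5 lists. Of 58 genes listed, 55 had a row with 1 symbol, and in untreated embryos 5 of these were higher and 16 lower in the mutant (20.5% of all rows called). Their median difference was -0.13. With α-amanitin 3 were higher and 1 lower in the mutant, where 9.04% of all rows were called, so this count was near the background. In control embryos 19 were higher and 6 lower untreated than treated (27.3% of all rows called). In mutant embryos 0 of 55 passed in that contrast by limma (3.56% of all rows called). At an unadjusted p below 0.05 there were 9. The share of all rows at that looser threshold was not counted, so the 9 cannot be set against the 3.56%. The interaction passed for 1 upward and 12 downward (14.3% of all rows called). Counts and backgrounds of all 5 lists are those of the deposited scaling. After quantile normalization the background of the untreated genotype comparison was 11.5% up and 10.4% down. Among brighter rows its called share was well above 20.5%.

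Among 12 other Bcl2 family genes, 6 were lower and 1 higher in untreated mutant embryos, beside 13.7% lower and 6.8% higher among all rows. Bnip3, a mitophagy receptor with a BH3-like region, fell by 1.32 ± 0.19 from 7.04 to 7.59 in control to 5.67 to 6.31 in mutant arrays. With α-amanitin Bnip3 had the opposite sign, at 0.77 ± 0.22, and narrowly missed the threshold (limma's adjusted p = 0.0502). The Bnip3 interaction was -2.10 ± 0.29 (limma's adjusted p = 0.000658). Its relative Bnip3l fell by 0.87 ± 0.13, Bcl2l14 by 0.98 ± 0.09, the guardian Bcl2l2 (Bcl-w) by 0.60 ± 0.10 and the BH3-only gene Bad by 0.26 ± 0.08. In untreated mutant arrays Bcl2l14 (4.52 to 4.61), Bcl2l2 (4.21 to 4.54) and Bad (4.61 to 4.65) lay close to the array medians (4.45 to 4.55). Pmaip1, the BH3-only partner of Mcl1 known as Noxa, was the member of this list that rose, by 0.46 ± 0.12, and it also rose with α-amanitin, by 0.80 ± 0.13 (limma's adjusted p = 0.00347). Its values were 4.56 to 4.61 in untreated control, 4.78 to 5.28 in untreated mutant, 4.54 to 4.65 in treated control arrays, and 5.30 and 5.49 with treatment in the mutant, so that no mutant array reached down to any control array.

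Among 14 caspase and apoptosome genes, 4 were lower and 2 higher in untreated mutant embryos, against the same background of 13.7% and 6.8%. Apaf1, the scaffold of the apoptosome, fell by 1.03 ± 0.09 (limma's adjusted p = 2.1e-05), from 6.06 to 6.27 in control to 5.10 to 5.21 in mutant arrays. Casp6, an executioner caspase, fell by 0.37 ± 0.11, while the initiators Casp2 and Casp8 rose by 0.44 ± 0.10 and 0.31 ± 0.10. The Casp8 values, 3.94 to 4.23 in control and 4.29 to 4.54 in mutant arrays, lay near or below the array medians (4.45 to 4.55). The mutant values of Casp6, 4.34 to 4.50, did so too. Cycs, cytochrome c, fell by 0.70 ± 0.15 on its brightest row but is uncertain, since 1 of its 3 rows was called and its coding sequence has near-identical pseudogene copies. The same row rose in the mutant with α-amanitin, by 0.78 ± 0.17 (limma's adjusted p = 0.0143, again 1 of 3 rows), with an interaction of -1.48 ± 0.22 (adjusted p = 0.00113, 2 of 3 rows).

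Among 9 inhibitors of apoptosis and their antagonists, 2 were lower, a share near the 20.5% of all rows called. Birc6, a giant inhibitor with ubiquitin ligase activity, fell by 1.18 ± 0.10, and Diablo, the mitochondrial protein that relieves inhibition of caspases, fell by 1.19 ± 0.12. Among 9 genes of mitochondrial channels and released proteins, 3 were lower and 1 higher, beside 13.7% lower and 6.8% higher among all rows. Mtch2, a receptor for truncated Bid on mitochondria, fell by 1.14 ± 0.10, Aifm1 by 1.09 ± 0.13 and the nuclease gene Endog by 0.65 ± 0.15, while Tmbim6 (Bax inhibitor 1) rose by 0.45 ± 0.14. The Endog values of untreated mutant arrays, 4.30 to 4.59, lay close to the array medians (4.45 to 4.55). Aifm1 went the other way with α-amanitin and rose by 0.85 ± 0.14 (limma's adjusted p = 0.00387), with an interaction of -1.94 ± 0.19 (adjusted p = 0.000123). Among 11 death receptor genes 2 were called, again a share near the 20.5% of all rows. The adaptor Traf2 fell by 0.71 ± 0.10 and the kinase gene Ripk1 rose by 0.39 ± 0.12. With α-amanitin Ripk1 fell by 0.61 ± 0.13 (adjusted p = 0.0163), and its interaction was 1.0 ± 0.18 (adjusted p = 0.00317).

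Several of these genes also passed between untreated and treated control embryos. Aifm1 was higher untreated by 2.22 ± 0.13, Bnip3 by 1.89 ± 0.19, Mtch2 by 1.77 ± 0.10, Birc6 by 1.46 ± 0.10, Diablo by 1.28 ± 0.12 and Apaf1 by 1.16 ± 0.09. Birc2, a ubiquitin ligase of death receptor signalling, was higher by 0.31 ± 0.08 and the nucleotide carrier gene Slc25a4 by 0.90 ± 0.17. Lower in untreated embryos were Ripk1 (-1.16 ± 0.12), the channel gene Vdac3 (-0.95 ± 0.17), Tmbim6 (-0.64 ± 0.14), Casp2 (-0.42 ± 0.10), Casp8 (-0.37 ± 0.10) and the caspase-8 regulator Cflar (-0.28 ± 0.08). Cflar was called in 1 of its 3 rows. Neither Birc2, Slc25a4, Vdac3 nor Cflar passed in a genotype comparison.

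**Figure D4:**
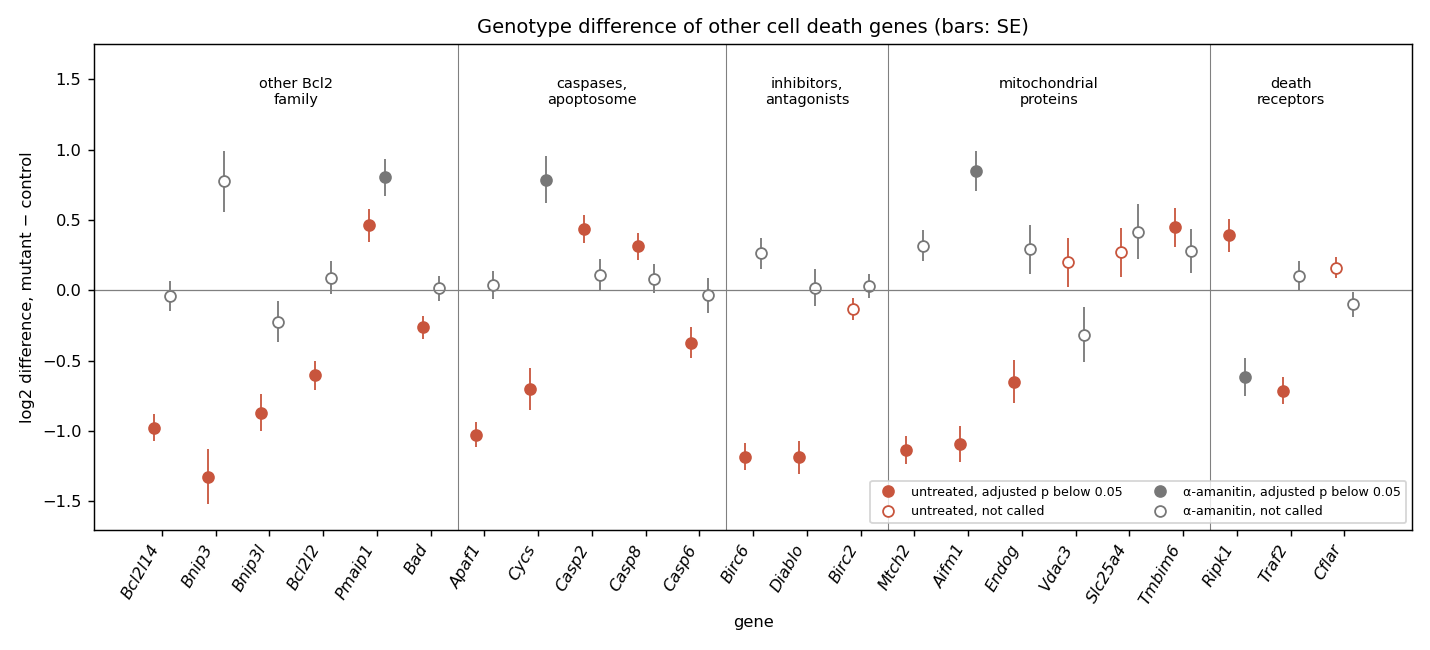
Log2 difference between mutant and control embryos (y axis) for named genes of the 5 further lists (x axis), untreated in red and with α-amanitin in grey; bars are limma's SE and filled points passed an adjusted p of 0.05. Apaf1 (-1.03), Birc6 (-1.18) and Diablo (-1.19) lie below 0 untreated, and Pmaip1 lies above 0 in both (0.46 and 0.80).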

How the data were processed

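The labels put 11 arrays into 4 groups by title. The authors deposited log2 values (1.11 to 12.8). The submitters' processing notes name R 2.10.0 and affy. RNA was amplified as a whole transcriptome before labelling, per the labels' protocols. The sources used here state neither the background correction, nor the normalization between arrays, nor the genome build. Rows were named from the authors' deposited annotation, with 23333 of 34760 rows holding 1 symbol, of which 3495 were updated through RefSeq (GRCm38.p6) and 2546 had no match. The third transcript's symbol is not in that table.

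The fit used limma 3.58.1 (R 4.3.3) on all 34760 rows (1 mean per group over 11 arrays, eBayes, 7 residual and 3.59 prior degrees of freedom, no filter). P-values are 2-sided and adjusted by Benjamini-Hochberg over all rows, and below 0.05 counts as called. The fit was tested on simulated data. The members and gene lists were chosen with earlier results of these data known. Named were all 10 members, up to 6 called genes of each further list by smallest adjusted p, and 3 genes most like each of the 3 members with the widest range. One named gene of a further list is not reported here. Values equal in 2 or more arrays occur in 34.7% of rows and in 6 of the 10 members (the SD of 0 of Bak1 in treated mutant arrays is such a case). The labels call the pools biological replicates. Precision is limited by the number of arrays. Alternatives were quantile normalization, median centring, the brighter 50% of rows, an intensity trend, array weights, only the groups compared, a replicate block, the mean of a gene's rows, and leaving out each array.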

Additional observations from a re-analysis of the deposited data

Results flagged for a closer look

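The response to α-amanitin differed between the genotypes by the interaction test for 5 members of the family. The same test called 14.3% of all rows (3.47% up and 10.9% down), and the share among brighter rows was well above 14.3%. The members' count was not tested against these shares. The untreated minus treated difference was smaller in mutant embryos for Mcl1 (interaction -1.48), Bax (-0.72) and Bid (-0.88). It was less negative in mutant embryos for Bcl2l1 (0.96) and Bcl2l10 (1.14). No group had enough arrays for a search for single outlying arrays.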

How the results depend on the processing

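Among 935 recomputed differences of single members, 903 kept their sign and their side of the threshold, 7 were no longer called, 4 became called and 21 changed sign, and 0 of those 21 had been called. The number of members called stayed at 5 for the untreated genotype comparison and at 5 for the interaction under every alternative run, and ranged from 6 to 7 for treatment in control embryos. With α-amanitin, the genotype count of 1 was 0 with array weights, with only the groups compared and with the replicate block (Bcl2l10 at 0.54, adjusted p = 0.0528), and 0 to 1 when single arrays were left out. For treatment in mutant embryos, the count of 1 was 2 over the brighter 50% of rows (which leave out 1 member), 0 with only the groups compared, and 1 to 2 when single arrays were left out, the gain being Bcl2l10. Leaving out a treated mutant array leaves 1, which is assumed to vary like the other groups. Only the groups compared is a smaller fit, and the other causes were not tested.

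Sign changes were those of Bak1 (-0.00781) and Bcl2 (-0.0320) for treatment in control and mutant embryos with quantile normalization, Bcl2 for treatment in mutant embryos with array weights (-0.00965), and Bbc3 for the interaction with the replicate block (-0.0259). Leaving out single arrays gave -0.0636 to 0.0887 for Bak1 and treatment in control embryos, -0.113 to 0.0393 for Bak1 and genotype with α-amanitin, -0.00693 to 0.311 for Bcl2l11 there, -0.0296 to 0.0554 for Bcl2 and -0.0195 to 0.0828 for Bax for treatment in mutant embryos, and -0.0576 to 0.0602 for Bbc3 and -0.122 to 0.228 for Bik for the interaction.

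Over all rows, the genotype count with α-amanitin of 3144 was 2050 with array weights and 1231 with only the groups compared. The treatment count in mutant embryos of 1238 was 2177, 558 and 142 with quantile normalization, array weights and only the groups compared, and 643 to 1908 when single arrays were left out. The replicate numbers were not taken as pairs, since not every same-number correlation of the arrays' deviations was above 0.1. Among the 3 groups of 3 arrays these were 0.029 to 0.154 (9 pairs), and 9 of 9 arrays correlated best with their own number, a hint from the data and not from the design. With the treated mutant arrays, whose 2 deviations mirror each other, they were -0.223 to -0.0193 (6 pairs). The block changed no other count of members called. No scaling moved the median of all rows by over 0.1.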

Other observations

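Within an array, the Mcl1 value minus the Bcl2l10 value cancels any factor common to both rows, and its level has no meaning except in a comparison between arrays. It lay between -0.32 and -0.01 in untreated control arrays, between -3.86 and -2.89 in untreated mutant arrays, between -4.80 and -4.20 in treated control arrays, and at -5.38 and -5.06 in treated mutant arrays. The shift between genotypes was -3.30 untreated and -0.68 with α-amanitin, and no groups overlapped. An exact 2-sided permutation test of each shift gave p = 0.1, its smallest possible value. The pair was chosen after its values were seen.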
